A study of Mus musculus with 5 samples.

Results

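Ependymal cells were sought in 5 single-cell RNA libraries of mouse brain, and 180 of 58411 barcodes that passed the quality limits (0.308%) were taken as members. A member had at least 500 UMIs (unique molecular identifiers, each standing for 1 captured RNA molecule), at least 200 detected genes, at most 20% mitochondrial UMIs, and at least 3 of 7 marker genes detected (Foxj1, Ccdc153, Tmem212, Rarres2, Dynlrb2, Pifo and Mia). Barcodes with 0.3% or more of their UMIs on the microglial genes C1qa, C1qb and C1qc, or with 2% or more on the choroid plexus gene Ttr, were left out. The libraries came from C57BL/6J mice: 1 from sham-operated brain and 1 each from the injury site at 1, 3, 7 and 14 days after traumatic brain injury. Injured cortex was dissociated with papain, cleared of debris on a Percoll gradient and run on a Chromium droplet platform. The numbers of mice behind a library were not given in the sources used here. With 1 library per group no difference had a replicate check, so no p-value is given, time point and library cannot be told apart, and every interval covers counting error only.

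Ependymal cells are the ciliated epithelium that lines the cerebral ventricles and moves cerebrospinal fluid. Their motile cilia are built on an axoneme of microtubule doublets around a central pair, with dynein arms as motors and radial spokes that regulate them. The program is switched on by the geminin-related factors Gmnc and Mcidas, which act with E2f proteins, and is carried by the forkhead factor Foxj1 and the RFX factors, many of whose target promoters hold a binding site with the core GTTGCC.

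Promoters of axonemal genes held that core more often than promoters at large, though many lacked it. Among the 300-base promoters held in the RefSeq set (GRCm38.p6; 250 bases before and 50 after each annotated start), GTTGCC or its reverse complement GGCAAC was found in 34 of 72 promoters that belong to 64 of the 80 axonemal genes studied (47.2%). It was found in 9 of 20 promoters of intraflagellar transport genes (45.0%) and in 3 of 6 promoters of 5 of the 7 marker genes. Of all 32851 promoters in the set, 4111 held it (12.5%). The forkhead core TGTTTAC or GTAAACA was found in 2 of the 72 axonemal promoters (2.78%) and in 1199 of all promoters (3.65%). These matches describe letters in a window and do not show binding. The following 60-base windows are shown because they hold the core in 3 marker genes (Ccdc153, the dynein light chain Dynlrb2 and Pifo, which acts at the ciliary base) and in 4 axonemal genes. Dnah10 is a heavy chain of the inner dynein arms, Drc1 and Gas8 belong to the nexin-dynein regulatory complex, and Sntn marks the ciliary tip. Capitals mark the core, and each sequence runs 5′ to 3′ on the strand of its gene.
Ccdc153, chr9:44240498-44240557, plus strand: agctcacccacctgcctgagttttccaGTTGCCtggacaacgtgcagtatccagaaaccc
Dynlrb2, chr8:116504937-116504996, plus strand: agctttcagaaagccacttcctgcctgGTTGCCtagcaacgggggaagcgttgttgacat
Pifo, chr3:106001498-106001557, minus strand: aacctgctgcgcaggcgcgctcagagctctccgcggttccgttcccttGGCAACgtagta
Dnah10, chr5:124725025-124725084, plus strand: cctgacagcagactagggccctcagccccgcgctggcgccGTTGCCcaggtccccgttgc
Drc1, chr5:30281333-30281392, plus strand: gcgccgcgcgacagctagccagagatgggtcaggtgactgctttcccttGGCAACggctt
Gas8, chr8:123518754-123518813, plus strand: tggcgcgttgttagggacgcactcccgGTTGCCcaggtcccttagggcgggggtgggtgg
Sntn, chr14:13670783-13670842, plus strand: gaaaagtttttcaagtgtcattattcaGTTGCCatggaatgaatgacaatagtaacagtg

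Members were counted in every library. The sham library held 1 member among 11525 passing barcodes, the day 1 library 63 of 12705, the day 3 library 25 of 9877, the day 7 library 28 of 12358 and the day 14 library 63 of 11946. The shares were 0.00868% (95% exact binomial interval 0.000220–0.0483) in sham, 0.496% (0.381–0.634) at day 1, 0.253% (0.164–0.373) at day 3, 0.227% (0.151–0.327) at day 7 and 0.527% (0.405–0.674) at day 14. The injured libraries thus all lay above sham, and days 1 and 14 lay above days 3 and 7, by more than counting error. Injured libraries were titled as injury site and sham was not, so how much ventricular wall entered each dissection was not tested. The share also depends on depth, which rose from a median of 774 UMIs per passing barcode in sham to 1757, 3258, 7279 and 8739.5 at days 1, 3, 7 and 14. When every barcode was thinned to 500 UMIs before the markers were counted, the shares were 0.00868% (0.000220–0.0483) in sham, 0.220% (0.146–0.318) at day 1, 0.0709% (0.0285–0.146) at day 3, 0.0243% (0.00501–0.0709) at day 7 and 0.142% (0.0829–0.228) at day 14. After thinning, the intervals of days 3 and 7 overlapped that of sham, and the intervals of days 3 and 14 overlapped, so only days 1 and 14 stayed above sham by more than counting error.

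Other facts of the libraries touch these counts. The labels speak of 5188 to 11934 cells loaded per sample, and 3 of the 5 libraries held more barcodes than that. Between any 2 libraries 27 to 59 barcode sequences were shared, but none was a member in both, and 4 members had a barcode that also occurred in another library. The C1q limit removed 23 barcodes with at least 3 markers. Of these, 12 were rich in axonemal RNA (by the division given below), 8 of them at day 1. The Ttr limit removed 66, of which none was rich in axonemal RNA. Among those 66, Tmem212 was detected in 0 and Ccdc153 in 2. Other barcodes were rich in axonemal RNA but had fewer than 3 markers. They numbered 12 in sham, 20 at day 1, 4 at day 3, 0 at day 7 and 6 at day 14, and those in sham had a median of 560.5 UMIs. Scrublet, a doublet caller, marked 3.16% to 8.52% of barcodes per library and 1 member, which was kept. At least 3 markers of oligodendrocytes, neuroblasts, microglia and macrophages, endothelial or T and NK cells were also detected in 129 of the 180 members, so most members carried some RNA typical of another cell.

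Axonemal RNA was high in most members but not in all. To see this, UMIs of 80 axonemal genes in 5 lists (dynein arms, dynein arm assembly factors, radial spokes and nexin-dynein complex, central pair, and doublet and ciliary tip) were summed per member. The median member held 196 axonemal UMIs per 10000 in sham, 123 at day 1, 87.1 at day 3, 13.7 at day 7 and 82.8 at day 14, while astrocytes summed to 2.90 to 5.31 per 10000 and choroid plexus cells to 9.98 to 17.5. Members ranged from 0.825 to 288 per 10000. A division at 50 per 10000, chosen after these values were seen, gave 115 members called axoneme-rich here and 65 called axoneme-poor. It is a range and not a cell type, and 23 members lay between 30 and 80.

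Rule markers differed in how far they set axoneme-rich members apart from axoneme-poor ones. Tmem212 (chromosome 3, 27866066 to 27896368, minus strand, GRCm38), a membrane protein gene used as an ependymal marker, was detected in 100 of the 115 axoneme-rich members and in 6 of the 65 axoneme-poor ones. In astrocytes, which should lack Tmem212, at most 0.152% of cells of a library held a UMI of it, at a median depth of 1692.5 UMIs in that library. Ccdc153, a coiled-coil gene also used as an ependymal marker, was detected in 98 and 13. Foxj1, the ciliogenic transcription factor, was detected in 96 and 55, and Rarres2, which encodes the chemoattractant chemerin, in 110 and 62. Axoneme-rich members numbered 1 in sham, 58 at day 1, 17 at day 3, 5 at day 7 and 34 at day 14, and axoneme-poor members 0, 5, 8, 23 and 29. The axoneme-rich share of passing barcodes was 0.457% at day 1, 0.172% at day 3, 0.0405% at day 7 and 0.285% at day 14, so 17.9% of the day 7 members but 92.1% of the day 1 members were axoneme-rich.

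Members near the rule's own limit showed the same division. Of the barcodes with exactly 3 markers, just inside the limit, 11 of 13 were axoneme-rich at day 1, 3 of 10 at day 3, 1 of 21 at day 7 and 2 of 16 at day 14. Of those with 2 markers, just outside it, 4 of 21 were axoneme-rich at day 1, 1 of 62 at day 3, 0 of 152 at day 7 and 3 of 41 at day 14. All 7 markers were detected in 49 axoneme-rich members. Of the 65 axoneme-poor members 43 had exactly 3 markers. Axoneme-poor members were shallower than axoneme-rich ones at day 1, with a median of 1825 against 3287.5 UMIs, and deeper at day 3 (10796.5 against 2317), day 7 (16279 against 8744) and day 14 (19378 against 11438.5). Astrocyte RNA was found in both. At least 3 of the 10 astrocyte markers were detected in 3 of 5 axoneme-poor members at day 1, 8 of 8 at day 3, 23 of 23 at day 7 and 27 of 29 at day 14, and in 43 of 58, 13 of 17, 5 of 5 and 29 of 34 axoneme-rich members. The astrocyte markers summed to 5457, 7783, 19408 and 10369 CPM in axoneme-poor and to 2131, 1815, 1680 and 3123 CPM in axoneme-rich members at days 1, 3, 7 and 14 (CPM, the summed UMIs of a gene scaled to a common total of UMIs). Astrocytes, which were picked on these markers, held 15137, 12467, 16118 and 10135 CPM. Axoneme-poor members thus reached the astrocyte level at days 7 and 14, but not at days 1 and 3. The low axonemal UMIs of the axoneme-poor members were set by the division, and Tmem212, in 6 of 65, is a rule marker. Foxj1 was detected in 55 and Rarres2 in 62 of the 65. What these members are was therefore not settled. As a choice of wording they are not called ependymal below, and results are given for the axoneme-rich members wherever their number allows.

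**Figure D1:**
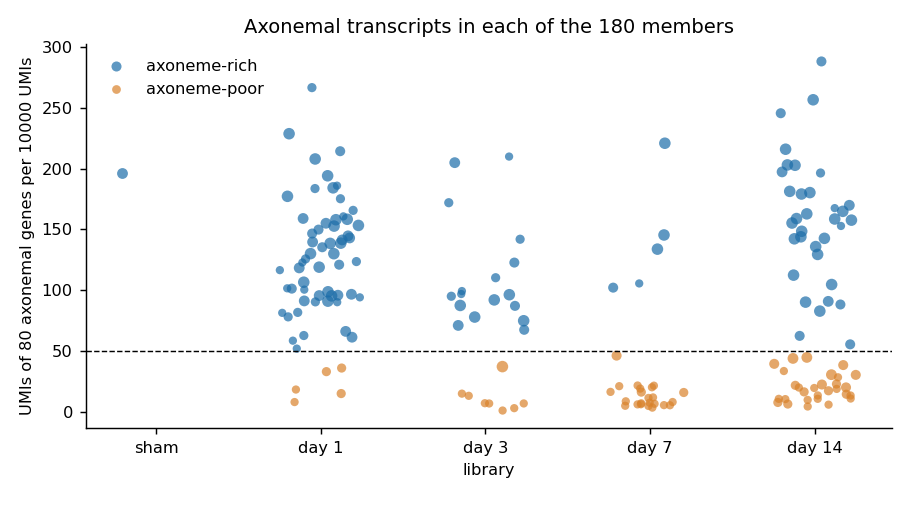
Axonemal UMIs per 10000 UMIs in each member (points) by library, with the division at 50 drawn as a line. Day 1 members lie mostly above the line and day 7 members mostly below it.

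The marker genes were abundant in axoneme-rich members and scarce elsewhere, as the rule in part required. Levels are in CPM, without correction for gene length. Tmem212 stood at 3323 CPM in the single sham member, 1455 at day 1, 1774 at day 3, 1309 at day 7 and 1656 at day 14, against at most 0.779 CPM in astrocytes and 0 in choroid plexus cells of the 4 libraries that held any. Foxj1 stood at 1813, 958, 650, 723 and 855 CPM in the same order, against at most 17.4 in astrocytes and 184 in choroid plexus cells, which also bear cilia. Rarres2 stood at 2115, 1625, 1341, 2149 and 2209 CPM, with astrocytes at 39.9 to 98.1. Each of these 3 varied by less than 2-fold among the injured libraries, while Ccdc153 ran from 623 CPM at day 3 to 1538 at day 14. The sham level rests on 1 cell of 3310 UMIs, in which a gene with no UMI may stand at up to 906 CPM (3 UMIs), so a value of 0 in sham sets no order below. In axoneme-rich members 3 UMIs stand for 12.4, 40.6, 58.6 and 6.48 CPM at days 1, 3, 7 and 14. Values below these rest on fewer than 3 UMIs and are not ordered among themselves. When 1 marker was set aside and members were required to pass on the other 6, its detection in axoneme-rich members differed by marker. Tmem212 was detected in 46 of 52, 14 of 15, 3 of 5 and 28 of 34 at days 1, 3, 7 and 14. For Pifo it was 26 of 58, 7 of 16, 4 of 5 and 28 of 33. For Mia it was 38 of 57, 7 of 17, 3 of 5 and 26 of 33. The lowest of the 7 at days 1 and 3 were Pifo and Mia.

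The motors and scaffold of the cilium were present at each time point. Dynein arm genes, the motors of the beat, summed to 5136 CPM in the sham member and to 2873, 1842, 3576 and 3496 CPM in axoneme-rich members at days 1, 3, 7 and 14, against 39.8 to 86.4 CPM in astrocytes and 71.8 to 258 in choroid plexus cells. Radial spoke and nexin-dynein genes, which couple the motors to the central pair, summed to 5438, 3097, 2262, 4826 and 3769 CPM. Central pair genes summed to 4834, 2898, 2140, 3048 and 3004 CPM, and doublet and ciliary tip genes to 3323, 3362, 2384, 4592 and 3676 CPM. Day 3 was the lowest of the injured libraries in each of these 4 lists. Since axoneme-rich members were picked on these genes, their levels are a description.

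**Figure D2:**
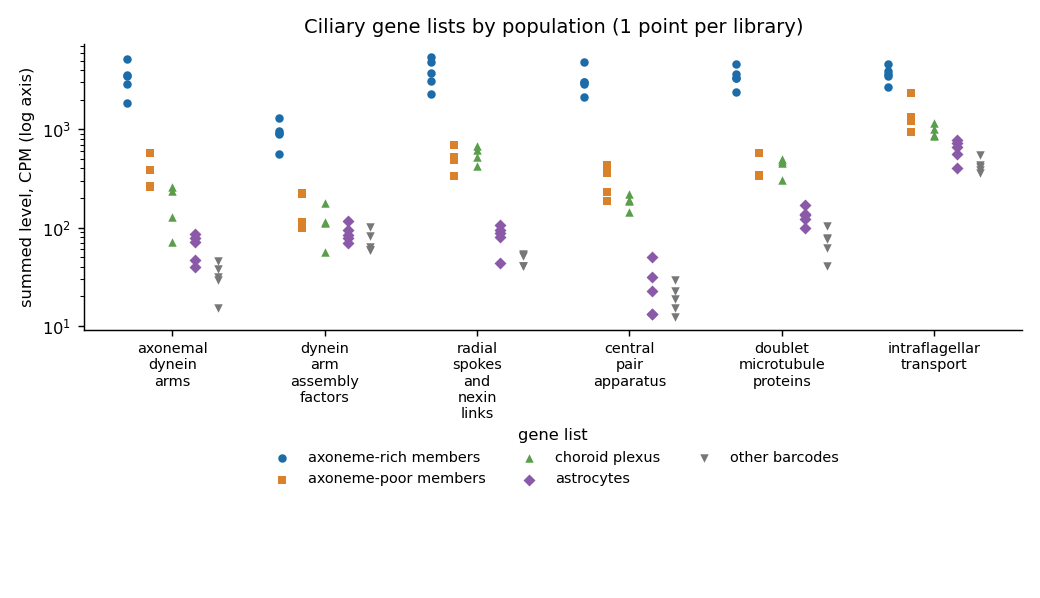
Summed level of each ciliary gene list (CPM, log scale) by library in axoneme-rich members, axoneme-poor members, astrocytes and choroid plexus cells. Axoneme-rich members hold 1842 to 3576 CPM of dynein arm genes at days 1 to 14, and astrocytes 39.8 to 86.4 across all libraries.

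Within the lists the members differed. Hydin, a central pair protein whose loss causes hydrocephalus in mice, stood at 290, 163, 313 and 272 CPM at days 1, 3, 7 and 14 in axoneme-rich members, with astrocytes at 0 to 0.288 CPM. Dnah9, an outer arm heavy chain, stood at 352, 203, 274 and 302 CPM, and Rsph4a, a radial spoke head protein, at 298, 149, 215 and 369 CPM. Sntn, a ciliary tip protein, stood at 348, 244, 176 and 285 CPM and had no UMI in axoneme-poor members at days 7 and 14. Day 3 was the lowest injured library for the first 3 of these genes and day 7 for Sntn. Dnaic2, an outer arm intermediate chain, differed most among dynein arm genes, with 45.6, 13.5, 78.2 and 194 CPM, and it was detected in 10 of 58 axoneme-rich members at day 1 and 26 of 34 at day 14. Day 14 members were deeper (median 11438.5 against 3287.5 UMIs), so the 2 counts of members do not measure a difference in expression.

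The change from day 1 to day 14 could be read across all genes in the axoneme-rich members, 58 and 34 in number. Of 7708 genes with a mean of at least 20 CPM, 10.0% were at least 2-fold higher at day 14 and 10.4% at least 2-fold lower, with a median log2 ratio of -0.01. Median depth per axoneme-rich member was 3287.5 UMIs at day 1 and 11438.5 at day 14. Mixed barcodes, with at least 3 markers of another of the cell classes named above, were 28 of the 58 and 30 of the 34. Without them 4 members were left at day 14, so this comparison was not repeated without mixed barcodes. Dynein arm assembly factors were higher in 3 of 11 (Dnaaf1, Ccdc103 and Dyx1c1, which stood at 20.7 to 41.5 CPM at day 1) and lower in 0, with a median of 0.19. Dynein arm genes were higher in 2 of 20 (Dnaic2 and Ccdc114, a docking complex gene) and lower in 0, with a median of 0.37. The log2 ratio of Dnaic2 was 2.09 (95% counting interval 1.18 to 3.14). Radial spoke and nexin-dynein genes were higher in 1 of 16 and lower in 1, central pair genes in 0 and 0 of 13, doublet and tip genes in 1 and 0 of 17, and intraflagellar transport genes, which carry cargo along the cilium, in 1 and 0 of 24. Members of both libraries were picked on the axonemal lists, so a like level of those lists was in part set by the choice and says little of change.

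Regulators of multiciliation were sparse. Deup1, which builds the deuterosomes that amplify centrioles, stood at 20.7 CPM in axoneme-rich members at day 1, 0 at day 3, 156 at day 7 and 95 at day 14. It was detected in 5 of 58 members at day 1 and in 16 of 34 of the deeper members at day 14, counts that depend on depth, and astrocytes lay at 0 to 0.622 CPM. Its day 14 to day 1 log2 ratio was 2.20 (0.87 to 3.89), while that of Gmnc, at 12.4 and 36.7 CPM, was 1.56 with an interval that spans 0 (-0.23 to 3.97). These were the 2 of 8 regulators past 2-fold, beside 10.0% of all genes higher and 10.4% lower, and the list's median was -0.04. The 15 cell cycle genes summed to 129, 135, 156 and 205 CPM in axoneme-rich members at days 1, 3, 7 and 14, against 338 to 1295 CPM in astrocytes of those libraries. Mki67, the proliferation marker, gave 1 UMI in all axoneme-rich members together, at day 1.

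Genes were also ranked by how far members stood above all other barcodes of the same library, over the 4 injured libraries and without regard to the lists. Because members were chosen on ciliary markers, the ranking is a description. Of the 20 leading genes, 7 were in the lists. Meig1, known in mice for its part in sperm formation, led with a median log2 ratio of 5.44 over other barcodes, at 895, 786, 899 and 1145 CPM in axoneme-rich members at days 1, 3, 7 and 14. Fam183b, a cilium-associated gene, followed at 5.26, and Riiad1 at 5.17. Cfap54, a central pair gene, reached 4.51 and the radial spoke gene Rsph1 reached 4.40. Against choroid plexus cells, axoneme-rich members stood higher by 6.25 for Fam183b and 2.61 for Rsph1 on the log2 scale, both with 10 CPM added. Lbp, which encodes the lipopolysaccharide-binding protein, had a median of 4.28 and stood at 796, 880, 332 and 441 CPM in axoneme-rich members, with 111 to 332 CPM in choroid plexus cells of the injured libraries and at most 2.18 CPM in astrocytes. Dmkn, dermokine, an epithelial secreted protein, had a median of 3.95 and stood at 298, 257, 449 and 302 CPM, with 0 in choroid plexus cells.

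Interferon-induced genes were high in axoneme-rich members at day 1 and lower at day 14. Of 19 measured interferon and MHC class I genes, 15 were at least 2-fold lower at day 14 and 0 higher. Over all genes 10.4% were lower and 10.0% higher, and the list median was -1.64 beside -0.01 for all genes. Ifit3 (chromosome 19, 34583531 to 34588731, plus strand), which restricts viral RNA translation with its relatives, stood at 0 CPM in the sham member, 775 at day 1, 27.1 at day 3, 19.5 at day 7 and 92.9 at day 14. Ifit1, of the same family, stood at 0, 709, 27.1, 39.1 and 66.9 CPM. Isg15, a ubiquitin-like modifier, stood at 0, 518, 67.7, 39.1 and 97.2 CPM. Among the injured libraries day 1 was the highest for all 3. The day 14 to day 1 log2 ratio was -3.06 (-3.57 to -2.58) for Ifit3, -3.40 (-4.01 to -2.85) for Ifit1 and -2.41 (-2.94 to -1.91) for Isg15.

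The MHC class I genes at the end of that list behaved otherwise. H2-K1, a class I heavy chain that presents peptides, stood at 464, 379, 293 and 875 CPM at days 1, 3, 7 and 14 in axoneme-rich members, with a day 14 to day 1 log2 ratio of 0.91 (0.61 to 1.23). The ratio of B2m, the class I light chain, was -0.10 (-0.38 to 0.20). Ifit3 was detected in 51.7% of axoneme-rich members at day 1 against 7.52% of astrocytes, whose cells were shallower. The richest member held 29.4% of the Ifit3 UMIs at day 1 and the richest for Ifit1 held 34.5%, and without that member each stood at 589 and 500 CPM.

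The interferon and class I list summed to 10886, 6488, 2990 and 4963 CPM in axoneme-rich members at days 1, 3, 7 and 14. The summed score per cell gave the same order of the injured libraries without pooling cells. Its median over axoneme-rich members was 72.6 UMIs per 10000 at day 1 (lowest 0, highest 356), 47.7 at day 3 (4.79–133), 29.5 at day 7 (15.7–52.6) and 44.4 at day 14 (11.5–135), beside 27.2 in the sham member. The cells of different libraries overlapped widely. Astrocyte medians were 0 in sham and 8.45, 9.60, 16.8 and 19.1 at days 1, 3, 7 and 14. The astrocyte group numbered 4614 barcodes at day 1 and 250 at day 14. Its oligodendrocyte markers summed to 3927 and 15564 CPM at these days, and its astrocyte markers to 15137 and 10135 CPM. It was thus not a like population at both days, which limits every astrocyte comparison of them. In astrocytes 6 of 16 measured genes of the list were at least 2-fold higher at day 14 than at day 1 and 0 lower, beside 14.9% of all genes higher and 9.76% lower there, with a median of 0.90 beside 0.20 for all genes. Choroid plexus cells, another ciliated epithelium, showed the same direction as the axoneme-rich members. They numbered 73, 152, 9 and 149 at days 1, 3, 7 and 14, so their day 7 level rests on few cells. Their list summed to 5454, 3402, 2951 and 3514 CPM at days 1, 3, 7 and 14, and 10 of 18 measured genes were lower at day 14 than at day 1 and 2 higher, beside 20% and 7.75% of all choroid plexus genes, with a median of -1.14 beside -0.21. Ifit3 went from 95.4 to 4.25 CPM there. The pooled level was thus highest at day 1, among the injured libraries, in axoneme-rich members and choroid plexus cells and at day 14 in astrocytes, differences that were not tested.

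**Figure D3:**
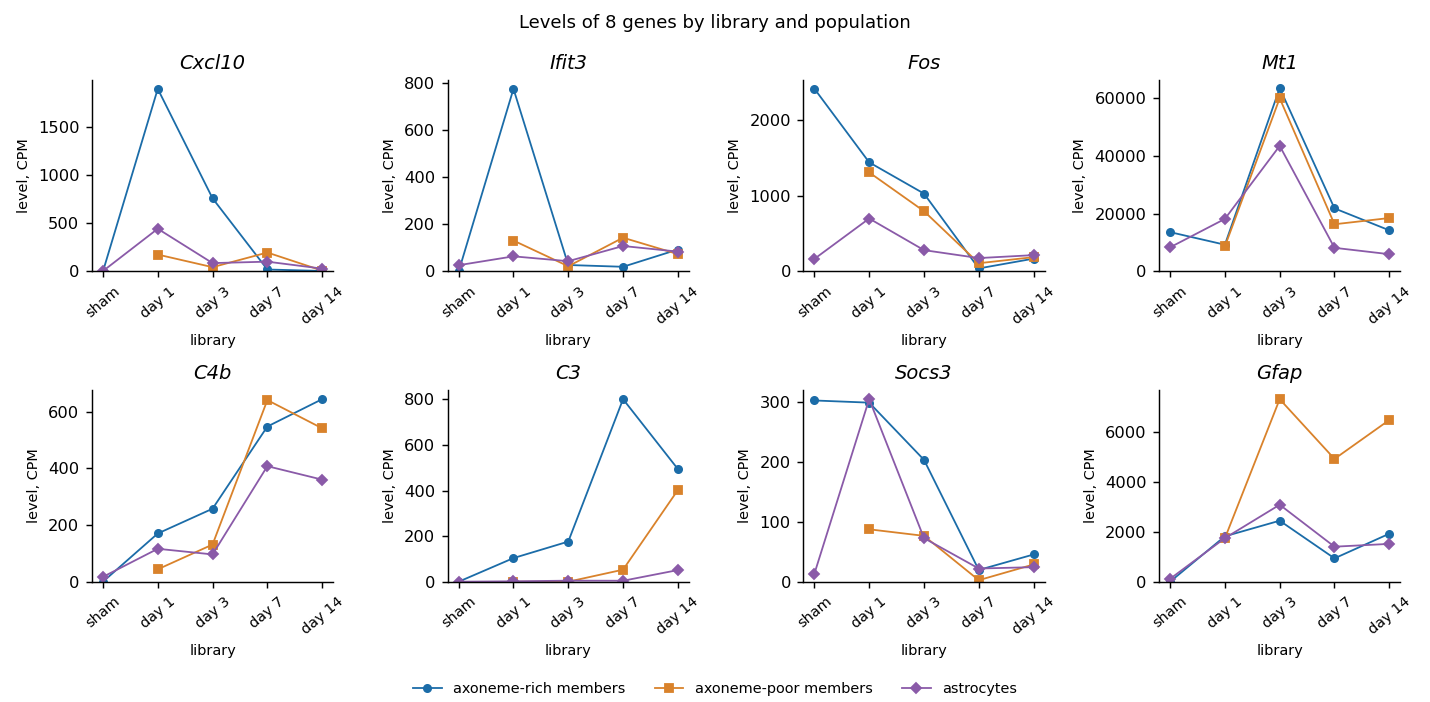
Level of 8 genes (CPM) by library in axoneme-rich members, axoneme-poor members and astrocytes. Among the injured libraries, Ifit3 in axoneme-rich members is highest at day 1, Mt1 at day 3, and C4b at day 14.

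Secreted chemokines followed the day 1 pattern with less certainty. Cxcl10 (chromosome 5, 92346638 to 92348889, minus strand), a chemokine for T cells, stood at 0 CPM in the sham member, 1895 at day 1, 758 at day 3, 19.5 at day 7 and 4.32 at day 14. Its day 14 to day 1 log2 ratio was -8.78 (-11.83 to -6.92). It was detected in 20 of 58 axoneme-rich members at day 1 and in 12.5% of astrocytes, but 1 member held 58.0% of its UMIs, and without that member the day 1 level was 857 CPM. Cxcl10 was also lower at day 14 than at day 1 in astrocytes (28.6 against 442 CPM) and in other barcodes (138 against 407 CPM). Ccl2, a chemokine for monocytes, stood at 332 CPM at day 1 and 34.6 at day 14, with 70.0% of the day 1 UMIs in 1 member. With a list median of -0.98, 9 of 18 measured cytokine and growth factor genes were lower at day 14 and 4 higher, beside 10.4% and 10.0% of all genes. Among the higher genes of the list, Ptn, which encodes the neurite-promoting factor pleiotrophin, stood at 170, 433, 469 and 667 CPM at days 1, 3, 7 and 14, beside 1797 to 2782 CPM in astrocytes of those libraries.

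Immediate early and stress genes were likewise higher at day 1 than at day 14. Of 19 measured, 13 were at least 2-fold lower at day 14 and 0 higher, beside 10.4% and 10.0% of all genes. The list median was -1.61. Fos, a subunit of the AP-1 transcription factor, stood at 2417 CPM in the sham member and at 1443, 1029, 39.1 and 168 CPM at days 1, 3, 7 and 14 in axoneme-rich members. Egr1, a zinc finger factor induced within minutes of stimulation, stood at 906, 796, 379, 97.7 and 86.4 CPM, and Dusp1, a phosphatase that ends MAP kinase signalling, at 906, 464, 718, 19.5 and 41.0 CPM. The sham values rest on 8, 3 and 3 UMIs. These genes are known to respond to enzymatic dissociation, whose part was not tested. The chaperone Hsp90aa1 stood at 6949, 4034, 1327, 2013 and 5209 CPM with a day 14 to day 1 log2 ratio of 0.37 (0.26 to 0.48). In astrocytes 8 of 19 genes of this list were lower at day 14 and 1 higher, beside 9.76% and 14.9% of all genes, and Fos in astrocytes stood at 700 CPM at day 1 and 215 at day 14.

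Metallothioneins marked day 3. Mt1 (chromosome 8, 94179082 to 94180327, plus strand), which binds zinc and copper, stood at 13595 CPM in the sham member and at 9236, 63507, 21825 and 14224 CPM at days 1, 3, 7 and 14 in axoneme-rich members. Mt2, its neighbour and relative, stood at 2417, 3325, 20654, 5178 and 3725 CPM. Day 3 was the highest library for both by a wide margin, with log2 ratios over day 1 of 2.78 (2.71 to 2.85) for Mt1 and 2.64 (2.51 to 2.76) for Mt2. The 17 axoneme-rich members of day 3 are fewer than the 25 asked of a library elsewhere. In that comparison 10.8% of 7012 genes were at least 2-fold higher and 21.5% lower, and 3 of 17 measured metallothionein, iron and redox genes were higher, with a median of 0.46 beside -0.15 for all genes. Astrocytes held 18178 CPM of Mt1 at day 1 and 43478 at day 3, and other barcodes 8165 and 15536, so the higher level at day 3 was not limited to ependymal cells.

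The score per cell for this list separated most cells. Its median was 338 UMIs per 10000 at day 1 (133–827), 920 at day 3 (536–1668), 457 at day 7 (194–468) and 374 at day 14 (204–887) in axoneme-rich members. The lowest day 3 member thus lay above the medians of the other libraries. Other genes that were higher at day 3 than at day 1 in axoneme-rich members included the secreted glutathione peroxidase Gpx3, at 8.29 and 325 CPM, and the BMP antagonist Nbl1, at 62.2 and 677 CPM. The neuropeptide gene Npy stood at 37.3 CPM at day 1, 312 at day 3, 156 at day 7 and 47.5 at day 14, and it was detected in 8 of the 17 day 3 members. The cell cycle inhibitor Cdkn1a stood at 141 CPM at day 1 and 826 at day 3. Gpx3 rested on 5 of the 17 members, and Nbl1 on 11.

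**Figure D4:**
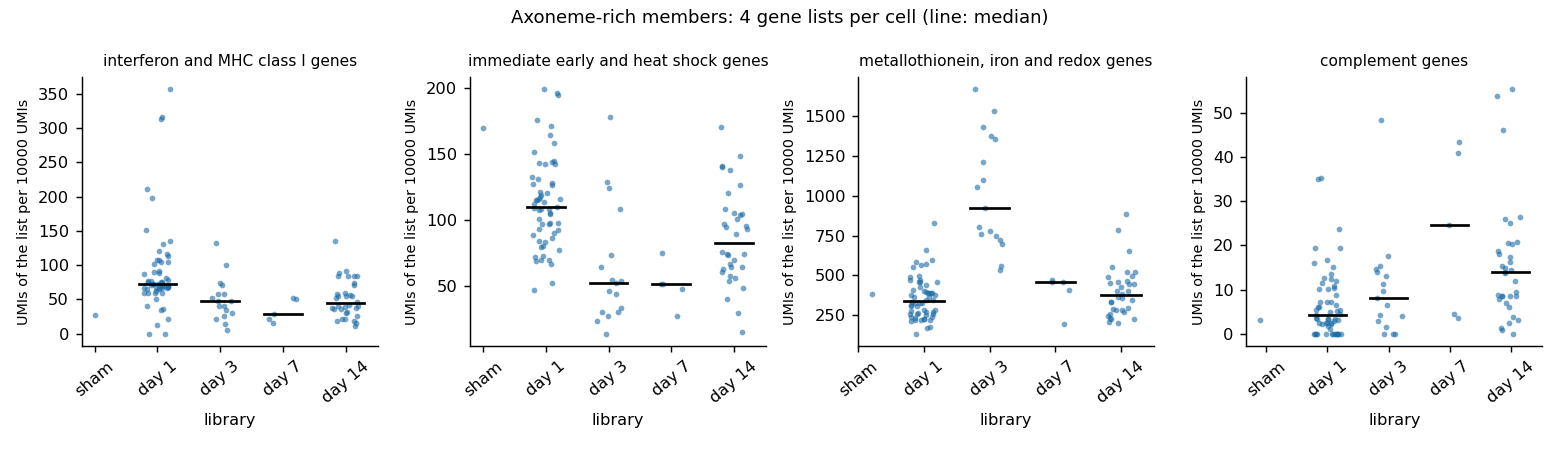
Summed UMIs per 10000 of 4 gene lists in each axoneme-rich member (points) by library. Interferon and class I scores reach 356 at day 1, and metallothionein, iron and redox scores run from 536 to 1668 at day 3.

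Complement genes were higher at days 7 and 14 than at day 1. C3, the central complement protein, stood at 0 CPM in the sham member and at 104, 176, 801 and 495 CPM at days 1, 3, 7 and 14 in axoneme-rich members, against at most 51.0 CPM in astrocytes. C4b, a component of the classical pathway, stood at 0, 170, 257, 547 and 644 CPM, and astrocytes at 17.0, 116, 96.2, 407 and 360 CPM. Of the injured libraries day 1 was the lowest for both, and the day 14 to day 1 log2 ratio was 2.25 (1.66 to 2.91) for C3 and 1.92 (1.45 to 2.43) for C4b. With a list median of 1.76, 3 of 5 measured complement genes were higher at day 14 and 0 lower, beside 10.0% and 10.4% of all genes. The third was Cd59a, an inhibitor of the membrane attack complex, at 16.6 and 56.2 CPM. Serping1, the C1 inhibitor, stood at 104, 217, 449 and 194 CPM, with a ratio of 0.91 (0.25 to 1.61).

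The complement signal was spread over cells. C3 was detected in 55.9% of axoneme-rich members at day 14 and in 9.20% of astrocytes, and 1 member held 27.1% of its UMIs. C4b was detected in 85.3% and in 52.4%, and 1 member held 10.7%. Depth differed between these groups, so the shares are not set against each other as a measure of expression. In astrocytes C4b was also higher at day 14 than at day 1, with a log2 ratio of 1.63 (1.48 to 1.78), and 4 of 5 measured genes of the list were higher there, beside 14.9% of all genes. Microglia and macrophage markers were also higher at days 7 and 14: they summed to 626, 406, 1290 and 1404 CPM in axoneme-rich members at days 1, 3, 7 and 14, and at least 3 of the 12 were detected in 20 of 58, 7 of 17, 5 of 5 and 30 of 34. In barcodes past the C1q limit the complement list summed to 516, 232, 306 and 408 CPM, below the 589, 786, 1876 and 1505 CPM of axoneme-rich members in the same libraries.

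MHC class II genes were higher in the pooled day 14 sum, mostly through 1 member. Their sum in axoneme-rich members was 33.2 CPM at day 1, 27.1 at day 3, 19.5 at day 7 and 1507 at day 14. Of 5 measured genes, 5 were at least 2-fold higher at day 14 than at day 1, beside 10.0% of all genes. Cd74, the class II invariant chain, stood at 622 CPM at day 14, but 1 of the 34 members held 86.5% of its UMIs, and without it the level was 87.9 CPM. Other barcodes of that library held 2588 CPM of Cd74. The immunoglobulin light chain gene Igkc stood at 359 CPM in axoneme-rich members at day 14 and was detected in 28 of 34, against 11642 CPM in other barcodes and 11043 in astrocytes. Igkc is a product of plasma cells, and it had no UMI in axoneme-rich members of the other libraries. The part of free RNA in these values was not tested.

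Reactive glial genes were mixed. Of 20 measured, 10 were at least 2-fold lower at day 14 than at day 1 in axoneme-rich members and 3 higher. Over all genes 10.4% were lower and 10.0% higher, and the list median was -0.95. Serpina3n, a secreted protease inhibitor, stood at 0 CPM in the sham member and at 871, 1625, 332 and 197 CPM at days 1, 3, 7 and 14. Gfap, the glial intermediate filament, stood at 0, 1824, 2451, 938 and 1929 CPM, and S100a6, a calcium-binding protein, at 302, 6073, 7679, 2169 and 2330 CPM. Day 3 was the highest library for all 3. Cd109, a surface coreceptor that binds TGF-beta, stood at 614, 460, 215 and 151 CPM at days 1 to 14, with astrocytes at 17.8, 45.2, 6.36 and 26.1 CPM. Lcn2, an iron-siderophore carrier, was among the higher genes, at 53.9 CPM at day 1 and 248 at day 14, but was detected in 9 of 34 members.

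Surface genes of the ependyma moved in both directions. Cd24a, a sialoglycoprotein used to sort ependymal cells, stood at 906 CPM in the sham member and at 2637, 3725, 293 and 810 CPM at days 1, 3, 7 and 14 in axoneme-rich members, while astrocytes stayed at 8.65 to 37.6 CPM. Its day 14 to day 1 log2 ratio was -1.70 (-1.89 to -1.52). Of 16 measured surface and radial glial genes 5 were lower (Cd24a, Celsr2, Igfbp2, Nes and Sox9) and 2 higher. Over all genes 10.4% were lower and 10.0% higher, and the list median was 0.02. Celsr2, a cadherin of planar cell polarity, went from 153 to 66.9 CPM. Igfbp5, an IGF-binding protein, went from 70.5 to 309 CPM, detected in 8 of 58 and 18 of 34 members, counts that depend on the greater depth at day 14.

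Water and ion transport genes gave small counts. Of 10 measured, 2 were higher at day 14 than at day 1 in axoneme-rich members and 1 lower. Over all genes 10.0% were higher and 10.4% lower, and the list median was 0.24. Aqp4, the water channel of glial membranes, stood at 539, 352, 97.7 and 693 CPM at days 1, 3, 7 and 14. Atp1b2, a subunit of the sodium pump, stood at 991, 555, 137 and 417 CPM, with a day 14 to day 1 log2 ratio of -1.25 (-1.53 to -0.97). Kcnj16, a potassium channel, stood at 24.9, 40.6, 19.5 and 82.1 CPM, with a ratio of 1.72 (0.47 to 3.26). Of the injured libraries day 7 was the lowest for Aqp4 and Atp1b2, and it rests on 5 cells. Kcnj16 at days 3 and 7 did not pass the level of 3 UMIs (40.6 and 58.6 CPM) and is not ranked.

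The study's own title names the m6A demethylase ALKBH5 and SOCS3, the inhibitor of cytokine signalling, in microglia and macrophages. In axoneme-rich members Socs3 stood at 302 CPM in the sham cell, as 1 UMI, and at 298, 203, 19.5 and 45.4 CPM at days 1, 3, 7 and 14. It was detected in 24 of 58 members at day 1 and 10 of 34 at day 14, with a log2 ratio of -2.72 (-3.49 to -2). Astrocytes, with 304, 72.7, 21.9 and 24.2 CPM, were also highest at day 1 among the injured libraries. With a list median of -1.02, 7 of 13 measured genes of gp130, STAT3 and SOCS signalling were lower at day 14 and 0 higher. Over all genes 10.4% were lower and 10.0% higher. Stat3, the transcription factor of gp130 signalling, went from 195 to 95 CPM, and Il6st, the shared receptor subunit gp130, had a ratio of -0.11 (-0.90 to 0.71). Of 15 measured m6A genes (writers, readers and erasers) none was past 2-fold. Alkbh5 stood at 158, 122, 156 and 95 CPM, with a ratio of -0.73 (-1.39 to -0.06).

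**Figure D5:**
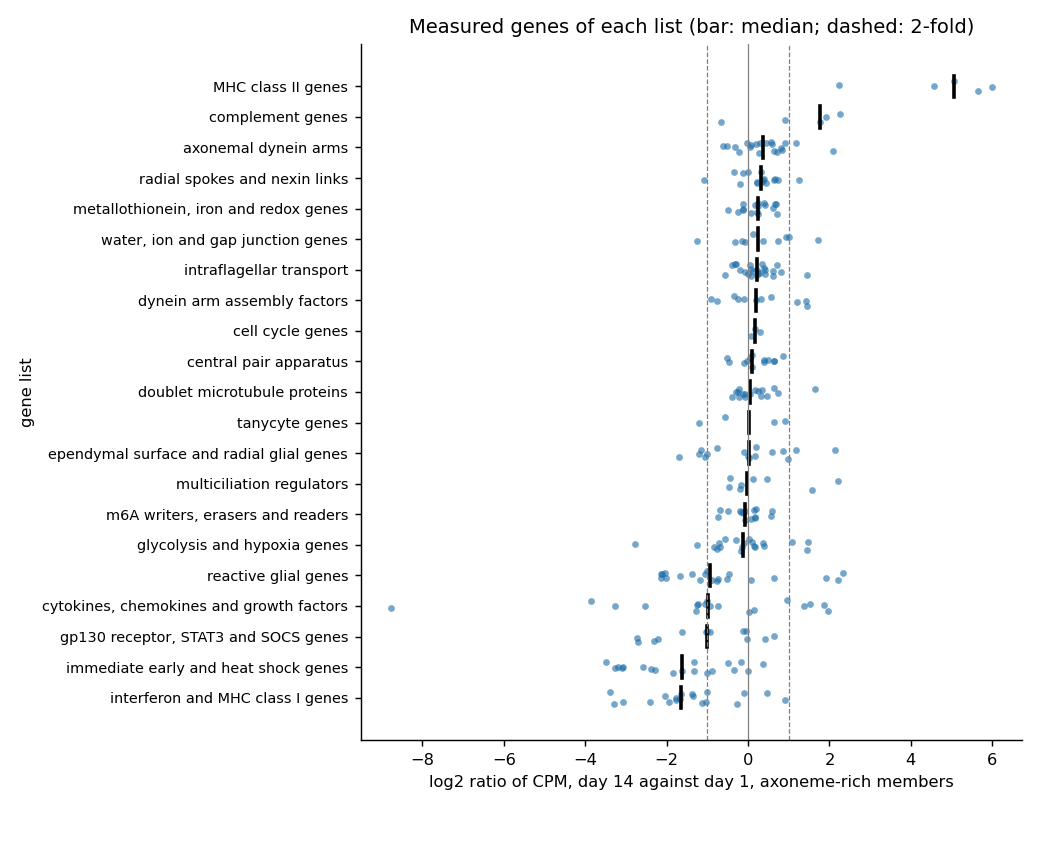
Log2 ratio of day 14 over day 1 in axoneme-rich members for the measured genes (points) of each list, with the list median. Interferon and class I genes have a median of -1.64 and complement genes of 1.76, beside -0.01 for all genes.

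Over all members, without the division, the time comparisons pooled axoneme-rich and axoneme-poor members in differing numbers, whose part was not tested. At day 3 against day 1, 8.20% of 7171 genes were at least 2-fold higher and 25.1% lower. At day 7, 12.5% of 7536 were higher and 26.9% lower, and at day 14, 9.87% of 7742 were higher and 13.4% lower. At day 7 central pair genes were lower in 12 of 12 (median -2.64) and dynein arm genes in 15 of 19 (median -2.01), while axoneme-rich members were 5 of 28. The genes that stood out as higher at day 7 included Thbs4, an extracellular thrombospondin, at 0 and 394 CPM, and Bcan, which encodes the proteoglycan brevican, at 18.9 and 610 CPM, both with most of their RNA in axoneme-poor members. Thbs4 stood at 442 CPM in axoneme-poor and 19.5 CPM in axoneme-rich members at day 7.

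The axoneme-poor members were compared at day 14 and day 7, the libraries that held 29 and 23 of them. Of 6935 genes, 13.1% were at least 2-fold higher at day 14 and 7.33% lower, with a median of 0.15. Mitochondrial UMIs moved with this comparison, at a median of 8.68% over all members at day 7 and 1.95% at day 14. The genes that stood out as lower at day 14 included Gm42418, at 32064 and 3793 CPM, and Lars2, at 1823 and 105 CPM, which were also lower in other barcodes (34288 and 1276 CPM, and 1266 and 56.3 CPM). Their part in the differences was not tested. Reactive glial genes were higher in 15 of 19, with a median of 1.60. Vim, an intermediate filament, stood at 2868 CPM at day 7 and 7014 at day 14, S100a6 at 2089 and 7504 CPM, and Cd44, the hyaluronan receptor, at 62.8 and 252 CPM. Foxj1 stood at 92.9 and 279 CPM, and Fabp7, a fatty acid binding protein of radial glia and astrocytes, at 801 and 2213 CPM, beside 253 and 1063 CPM of Fabp7 in astrocytes. Cell cycle genes were higher in 8 of 10, but Mki67 was detected in 4 of the 29 day 14 members and 1 of them held 89.1% of its UMIs. The matricellular gene Ccn5 stood at 0 CPM at day 7 and 249 at day 14. Gfap stood at 4934 and 6499 CPM in these members, against 938 and 1929 in axoneme-rich ones, while S100a6 at day 7 was at 2089 against 2169 CPM.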

How the data were processed

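Single-cell RNA was measured in 5 mouse libraries. The deposited values are UMI counts per gene and barcode; the file headers name Cell Ranger 4.0.0 as the authors' software, and the submitters' processing notes list STAR 2.5.37, Seurat 3.2.0 and GRCm38/mm10 without a role. Total counts per library ran from 11279455 to 129161094. Members and gene lists (22 lists) were chosen with earlier results of these data known. Positions of genes are GENCODE's for GRCm38; promoters are RefSeq's.

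Counts were summed over members per library and scaled to CPM. A log2 ratio carries an exact conditional binomial interval at 95%; with 0 UMIs on one side, 3 UMIs over the group were used and the value is a bound. Genes with a mean of at least 20 CPM were compared, and a ratio past 2-fold is called higher or lower. Sham held 1 member, fewer than the 25 asked of each library, so day 1 replaced sham as the reference that had been planned. The comparators were astrocytes (at least 4 of 10 markers and at most 1 rule marker), choroid plexus cells (Ttr at 2% or more and at least 3 other markers) and all other barcodes. The change over time in choroid plexus cells was added after seeing the data. Named genes were the rule genes, list members by size of ratio, the 8 highest and 8 lowest by the near bound of the interval per comparison (at least 50 CPM), and the 20 leading genes over other barcodes; single-gene remarks outside these were chosen after their values were seen. No barcode was removed as a doublet. The ratio code was tested on simulated data. Alternatives covered depth, mitochondrial and marker limits, thinning, doublets, mixed barcodes, TMM scaling, equal weight per cell and the minimum level. Tools were Python 3.11.15, numpy 2.4.6, scipy 1.17.1, pandas 2.3.3, scanpy 1.11.5 and, for TMM, edgeR 4.0.16 in R 4.3.3.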

Additional observations from a re-analysis of the deposited data

Results flagged for a closer look

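Interferon and MHC class I genes differed in direction between axoneme-rich members and astrocytes. From day 1 to day 14 the list's median log2 ratio was -1.64 in axoneme-rich members, with 15 of 19 measured genes at least 2-fold lower, beside 10.4% of all genes, and 0.90 in astrocytes, with 6 of 16 at least 2-fold higher beside 14.9% of all genes, whose median there was 0.20. In choroid plexus cells it was -1.14, with 10 of 18 at least 2-fold lower beside 20% of all genes, the same direction as in axoneme-rich members. The difference between the cell types was not tested, since each time point is 1 library. The astrocyte group also changed, from 4614 barcodes at day 1 to 250 at day 14. Its oligodendrocyte markers summed to 3927 and 15564 CPM, and the part of this mixing was not tested. Ifit3 went from 775 to 92.9 CPM in axoneme-rich members and from 63.9 to 83.9 CPM in astrocytes, so the levels of both were close at day 14.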

How the results depend on the processing

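No paired analysis was possible because each group has 1 library, and for the same reason no library could be left out of a group. Member shares moved with at least 4 markers (0.152% at day 3, 0.0566% at day 7, 0.393% at day 14), with thinning to 500 UMIs (0.220%, 0.0709%, 0.0243% and 0.142% at days 1, 3, 7 and 14), without mixed barcodes among members and all others (0% in sham and at day 7, 0.779%, 0.576% and 1.93% at days 1, 3 and 14) and, added after seeing the data, for axoneme-rich members alone (0.0405% at day 7, 0.285% at day 14). Of the genes higher in members at day 3, the count was 1098 without mixed barcodes, 1105 with equal weight per cell and 2101 with no minimum level, against 588. With no minimum, members gave 1906 higher and 4843 lower at day 7 and 1481 and 6047 at day 14, and axoneme-rich members gave 1927 and 2550. Genes lower in axoneme-rich members at day 14 numbered 1351 under the thinned rule and 1223 with equal weight per cell, against 801. With 1 CPM added, 11 of the 20 leading genes were shared.

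Some log2 ratios changed sign, which was looked for only where the main value was at least 2-fold. At day 3, with at least 4 markers, they were S100a9 1.26, Scrg1 -0.32 and Thbs4 -0.32; among axoneme-rich members alone, Lgals1 -0.68; and without the barcode richest in the gene, S100a8 2.27 and S100a9 2.26, and at day 7 S100a8 0.84. At day 14 the thinned rule turned the water and ion list (-0.086), the cell cycle list (-0.35), Ly6c1 (0.91), Scrg1 (-2.26) and Slco2a1 (0.91), and in axoneme-rich members Ly6c1 (0.91) and Vegfa (0.058); Ly6c1 also turned at a division of 80 (0.61) and without its richest barcode (0.62). Alternatives that left fewer than 10 members were not run, nor was the 20-gene ranking without mixed barcodes. Leaving out mixed barcodes left 0 members at day 7 and 4 at day 14, so no comparison of those days was checked in that way. The cause of these changes was not tested. Among values of single genes and lists, 1336 were counted as not moved and 149 as moved. Smaller main values among these were not checked for a change of sign.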
